A study of Mus musculus with 22 samples.

Results

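The genes described here encode the machinery that lays down and spreads γH2AX, the phosphorylated form of the histone variant H2AX that marks broken DNA and unsynapsed chromosomes. They are 10 mouse genes: H2ax itself, the kinases Atm, Atr and Chek2, the readers Mdc1, Topbp1 and Trp53bp1, the axis and ubiquitin genes Brca1 and Rnf8, and the silencer Setdb1. Every 50 kb window that overlaps 1 of these genes by its RefSeq position on GRCm38 (mm10) was taken, whatever its value, which gave 22 windows of the 54520 along the genome. A 50 kb window does not separate a gene from its neighbours, so each value below belongs to a stretch of chromatin and not to the gene alone, and nothing here measures expression.

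In male meiosis, homologous chromosomes that fail to pair keep BRCA1 and ATR on their axes. ATR phosphorylates H2AX there, MDC1 binds the mark and carries ATR and TOPBP1 outward into the chromatin loops, and RNF8 and SETDB1 act downstream on ubiquitin and on histone H3 methylation. In normal spermatocytes this happens on the X and Y chromosomes, which are silenced in the sex body. Mice that carry Robertsonian translocations (fusions of 2 chromosomes end to end at the centromere) can show the mark on unsynapsed stretches of autosomes as well. H3.3 is the replacement histone that is put in outside DNA replication and is plentiful over active genes.

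Chromatin immunoprecipitation and sequencing of whole testis was done in 22 libraries, 19 immunoprecipitations and 3 inputs. For γH2AX, 3 crosses of carriers were sampled at 4 weeks with 3 libraries each. 1Rb_M is an F1 of B6.SPRET7MOLF12 with CBy.RBF-Rb(8.12)5Bnr/J and carries 1 translocation, of chromosomes 8 and 12. 1Rb_P is an F1 of that translocation strain with C57BL/6J. 3Rb is an F1 of B6.SPRET7MOLF12 with RBF/Dnj and carries 3 translocations, and chromosomes 3 and 9 are among the joined ones, as background on the RBF/Dnj strain. A single γH2AX library came from C57BL/6J (B6) controls at 4 weeks, made with an antibody whose label names another supplier, so differences from the carriers could not be tested. For H3.3, 3 libraries each came from 1Rb (the cross of 1Rb_M), 3Rb and the control Cg (B6.SPRET7MOLF12), all at 6 weeks. Inputs came from 1Rb_M, Cg and B6, so 3Rb has none of its own. The crosses differ in parental strain as well as in translocations, and the 2 cannot be told apart. Whether replicates were separate animals is not stated, and the p-values then reflect the spread of these libraries, which may be technical.

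Total counts ran from 45527545 to 56385465 in the carrier γH2AX libraries and were 21535147 in B6. Those of H3.3 had between 41278440 and 128348440, the inputs between 11876426 and 51651953. In the 22 windows an immunoprecipitated library held 181 to 5800 counts, a counting error of 1.31 to 7.43%, and pooled input was 0.975 to 1.22 times the genome's median, so no window was short of mappable reads. As a check of the tissue, γH2AX was high on the X chromosome, whose median window stood 2.44 to 3.13 log2 units above the autosomal level in the 4 γH2AX groups. Replicates 1 and 2 of 1Rb_M stood apart from the other carrier libraries. The X took 12.34% of counts in each of them and 18.87% in 1Rb_M replicate 3. In the 1Rb_P and 3Rb libraries it took 17.67 to 18.88%. Chi-square per degree of freedom between replicates was 28.1 and 34.6 for the pairs with 1Rb_M replicate 3 and 2.76 for replicates 1 and 2.

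Levels are given as the log2 ratio of counts to pooled input, after subtracting the median ratio of the 13 autosomes that take part in no translocation, so 0 is an ordinary autosomal window. Each window was also set beside autosomal windows with the same number of protein-coding genes (378 to 19844 of them, called like windows below), since H3.3 rises with gene number: in Cg its median was -0.24 in windows without a gene, 0.12 with 1 gene, 0.49 with 2 and 0.94 with 5 or more. In 3Rb, γH2AX fell along the same order, from 0.06 without a gene to -0.21 with 5 or more.

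As a group, the γH2AX machinery's own loci held an ordinary amount of γH2AX and a high amount of H3.3. The median γH2AX level of the 22 windows was -0.01 in 1Rb_M, -0.01 in 1Rb_P, -0.03 in 3Rb and -0.10 in B6. In whole testis, fewer cells with the mark and less of it per cell cannot be told apart. Against like windows, 10, 11, 11 and 8 of the 22 lay above the median in these 4 groups. H3.3 had a median of 0.87 in 1Rb, 0.81 in 3Rb and 0.87 in Cg, which was 0.19, 0.25 and 0.26 above like windows, and 19 of 22 windows lay above the like median in each group. Matched instead by the share of the window covered by genes, the differences were 0.61, 0.58 and 0.61. The spread of the difference by gene number over replicates was 0.037, 0.025 and 0.057 (SD, n = 3). Like windows share chromosomes and neighbourhoods with the members, so these shares are descriptions, without a test.

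**Figure D1:**
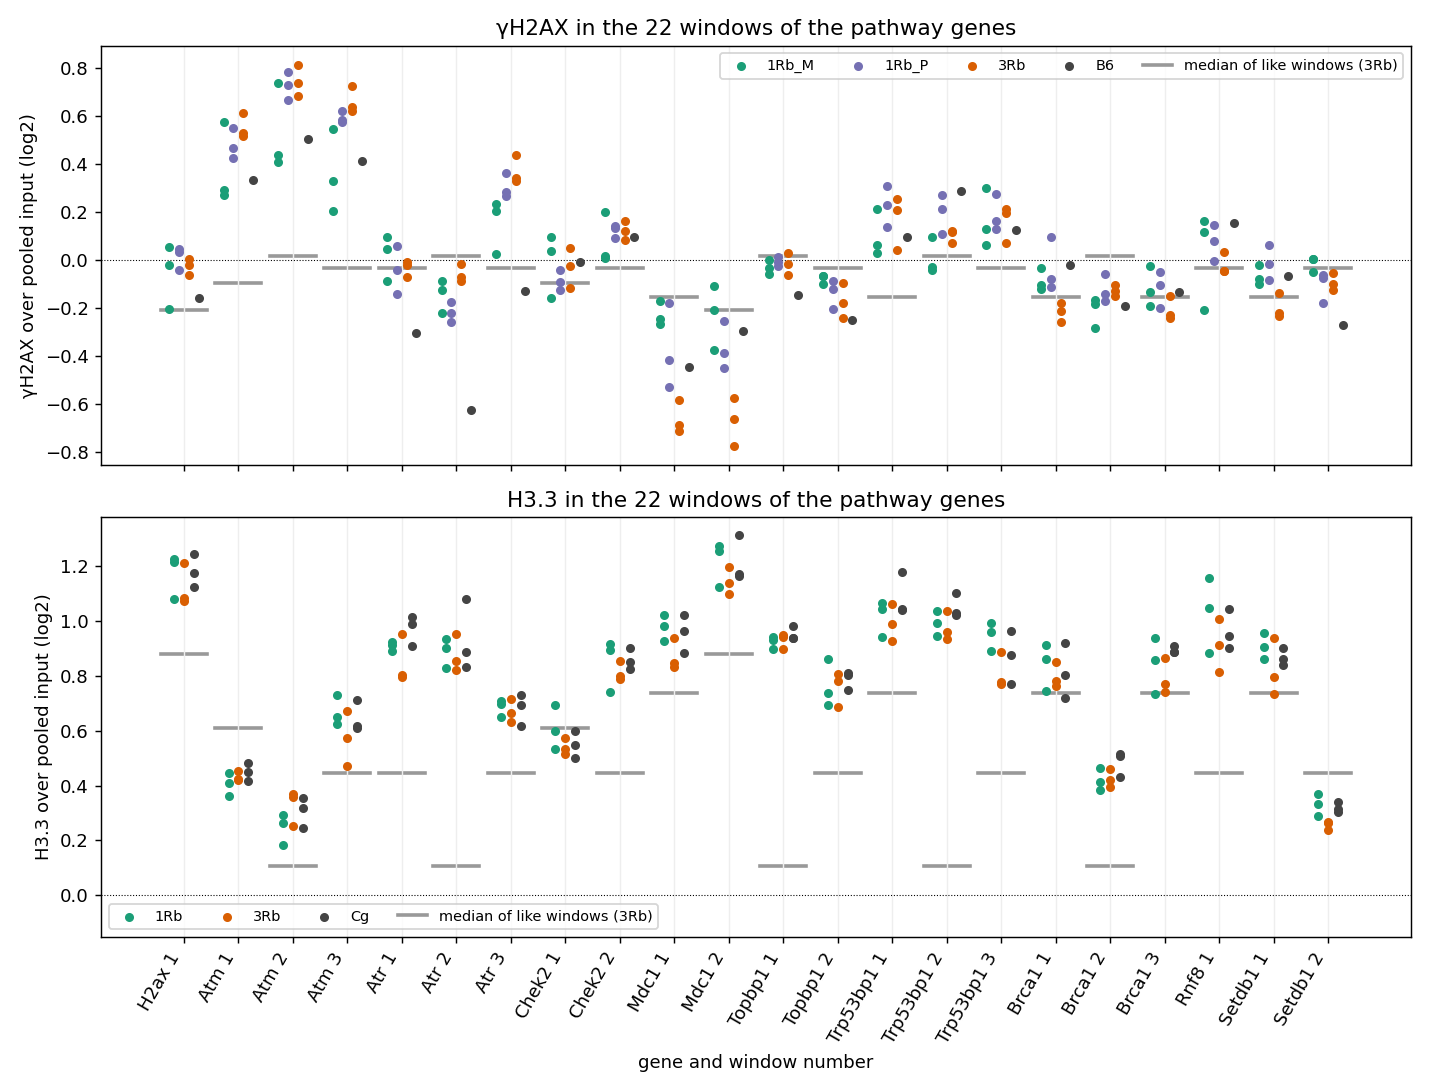
γH2AX (upper panel) and H3.3 (lower panel) as log2 counts over pooled input in each of the 22 windows, in genome order within a gene. Each point is 1 library (3 per carrier group and in Cg, 1 in B6), and the grey bars give the median of windows with the same gene number in 3Rb. Atm stands highest and Mdc1 lowest for γH2AX in the carriers, while H3.3 overlaps between its 3 groups in nearly every window.

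H2ax, the substrate, is a short gene (1363 bp, chr9:44334715-44336077) inside a crowded window with several other genes, among them C2cd2l, Dpagt1, Hinfp and Vps11. With the windows of each gene summed, it had the highest H3.3 of the 10 genes in every group. Mdc1 window 2, which also holds 6 genes, stood higher. Its means were 1.22, 1.14 and 1.22 in 1Rb, 3Rb and Cg, against 1.17, 1.12 and 1.18 at H2ax. Among like windows the H2ax window lay at percentiles 84.4, 92.3 and 90.7 for H3.3. The H3.3 level at H2ax was 1.08, 1.23 and 1.21 in the 1Rb libraries, 1.21, 1.07 and 1.08 in 3Rb and 1.24, 1.18 and 1.12 in Cg, so the 3 groups overlapped. Its γH2AX stayed near the autosomal level, at -0.02, -0.21 and 0.06 in 1Rb_M, 0.04, 0.05 and -0.04 in 1Rb_P, -0.06, -0.02 and 0.00 in 3Rb and -0.16 in B6. Where many windows this rich in genes held less γH2AX in 3Rb than in 1Rb_M (63.5% of the 378 like windows were called lower and 1.59% higher), the H2ax window differed by 0.01 ± 0.061 (log2 difference ± SE, n = 3 and 3, edgeR adjusted p = 0.87). Around it, within 500 kb, 10 of 20 windows were called lower in that comparison. The autosomal windows closest to H2ax in levels over the 7 groups held Khdrbs1 and Tmem39b on chromosome 4, Ctss, Golph3l and Hormad1 on chromosome 3, and 2610507B11Rik, Rskr and Sdf2 on chromosome 11. Their distances from H2ax were 0.080, 0.094 and 0.095 (Euclidean, over 7 group means) against a median of 1.7 over 27911 windows with genes.

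Atm, the kinase that answers double-strand breaks (chr9:53437122-53536828, 3 windows), had the most γH2AX of the 10 genes in all 4 groups. Its middle window, which lies wholly inside the gene, stood at 0.44, 0.41 and 0.74 in 1Rb_M, 0.67, 0.73 and 0.79 in 1Rb_P, 0.74, 0.81 and 0.68 in 3Rb and 0.50 in B6. Among windows with 1 gene that is percentile 99.0 in 1Rb_M, 99.2 in 1Rb_P, 98.3 in 3Rb and 97.7 in B6. High γH2AX at Atm was thus found in the control library too. The signal was a local rise: averaged over its 3 windows Atm lay above 19, 20, 17 and 18 of the 20 windows within 500 kb in 1Rb_M, 1Rb_P, 3Rb and B6, whose medians were 0.12, 0.08, 0.12 and 0.10. A second rise lay on the side of lower coordinates and reached 0.74 in 3Rb, as the plot of γH2AX around 6 genes shows. H3.3 at Atm was the lowest of the 10 genes in every group (0.45 ± 0.033 in 1Rb, 0.45 ± 0.055 in 3Rb, 0.47 ± 0.045 in Cg, SD, n = 3), between percentiles 26.9 and 71.4 of like windows.

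Atr, the kinase of unsynapsed axes (chr9:95857597-95953217, 3 windows), was as a whole gene close to the autosomal level in the carriers and well below it in B6. With its windows summed, γH2AX was 0.01 ± 0.066 in 1Rb_M, 0.03 ± 0.063 in 1Rb_P and 0.10 ± 0.037 in 3Rb (SD, n = 3). It was -0.34 in the B6 library. The windows differed within the carriers. Window 3 stood at 0.16, 0.31 and 0.37 in 1Rb_M, 1Rb_P and 3Rb (group means), at percentiles 83.2, 92.1 and 91.5 of like windows. Window 2 stood at -0.15, -0.22 and -0.06. The drop in B6 was deepest in window 2, at -0.63, where the 9 carrier libraries ran from -0.26 to -0.02. All 3 Atr windows in B6 lay below all 9 carrier libraries. H3.3 in that window was 0.89 ± 0.053 in 1Rb, 0.88 ± 0.068 in 3Rb and 0.93 ± 0.13 in Cg, at percentiles 97.6 to 98.6 of windows with 1 gene. Chek2, the effector kinase downstream of ATM (chr5:110839800-110874140), had γH2AX of 0.03 ± 0.11, 0.02 ± 0.028 and 0.04 ± 0.054 in the 3 carrier groups and 0.04 in B6, which did not differ beyond their spread.

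Mdc1, the reader that spreads the mark along chromatin loops (chr17:35841495-35859670, 2 windows), had the least γH2AX of the 10 genes in all 4 groups and the second highest H3.3. Window 1, which also holds Flot1, Ier3 and Tubb5, stood at -0.17, -0.25 and -0.27 in 1Rb_M, -0.18, -0.42 and -0.53 in 1Rb_P, -0.69, -0.71 and -0.58 in 3Rb and -0.45 in B6. The 3Rb libraries all lay below every other library. Window 2 stood at -0.11, -0.37 and -0.21, then -0.25, -0.39 and -0.45, then -0.78, -0.66 and -0.57 in the same 3 carrier groups, and at -0.30 in B6. In the carriers both windows were between percentiles 1.52 and 4.23 of like windows for γH2AX, and in the H3.3 groups between percentiles 72.6 and 95.5 for H3.3. H3.3 over the gene was 1.10 ± 0.065 in 1Rb, 1.02 ± 0.052 in 3Rb and 1.09 ± 0.073 in Cg (SD, n = 3).

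The Mdc1 start site falls in window 1, so the promoter is shown for the gene with the least of the mark, and that of Setdb1, whose start lies in window 2, beside the window 1 that was called in the comparisons below. Each is the 250 bases before the start, from RefSeq (GRCm38.p6), 5′ to 3′ on the gene's strand. Capitals mark matches on either strand to CCAAT, to the E2F motif TTTCCCGC, to the core TGACG of the cyclic AMP response element and to the MYB core TAACNG, none of which overlap each other here. Mdc1 lies on the plus strand at chr17:35841248-35841497 and Setdb1 on the minus strand at chr3:95357203-95357452.
Mdc1: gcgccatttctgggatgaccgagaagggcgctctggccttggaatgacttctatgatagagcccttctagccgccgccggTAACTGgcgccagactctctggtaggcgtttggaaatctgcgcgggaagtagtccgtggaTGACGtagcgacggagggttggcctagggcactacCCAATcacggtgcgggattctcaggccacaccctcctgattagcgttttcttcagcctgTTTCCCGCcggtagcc
Setdb1: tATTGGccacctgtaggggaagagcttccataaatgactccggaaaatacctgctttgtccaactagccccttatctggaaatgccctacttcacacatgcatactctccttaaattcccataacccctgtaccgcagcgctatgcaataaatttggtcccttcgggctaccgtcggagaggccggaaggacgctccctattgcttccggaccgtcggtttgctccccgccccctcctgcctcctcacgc
Mdc1 holds all 4 motifs, which 34.5, 0.93, 17.9 and 19.8% of 27025 mouse promoters of this length hold. Setdb1 holds CCAAT, of these 4. GC content is 59.2% in Mdc1 and 54.4% in Setdb1, against a median of 52.0%. A match is a description of these letters and shows no bound factor, and 50 kb counts do not resolve a promoter. RefSeq promoters were matched for 9 of the 10 genes, all but H2ax, and those of Atm, Atr, Brca1 and Chek2 lie partly or wholly within a neighbouring gene (Npat, 1700065D16Rik, Nbr1 and Hscb).

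Among the other readers, Topbp1, which activates ATR (chr9:103305167-103350428), stayed near the autosomal level for γH2AX, at -0.05 ± 0.024, -0.07 ± 0.036 and -0.10 ± 0.051 in 1Rb_M, 1Rb_P and 3Rb and -0.20 in B6. Its window 1, which holds no other protein-coding gene, had H3.3 of 0.92 to 0.95 in the 3 group means, at percentiles 98.2 to 99.1 of windows with 1 gene. Trp53bp1, whose protein 53BP1 binds modified histones at breaks (chr2:121194835-121296354), ranked second for γH2AX in all 4 groups: 0.09 ± 0.098, 0.20 ± 0.046 and 0.14 ± 0.040 in the carriers and 0.17 in B6. Its neighbourhood was higher still, with flank medians of 0.14, 0.27, 0.24 and 0.20. H3.3 in its middle window was 0.99 ± 0.044 in 1Rb, 0.98 ± 0.053 in 3Rb and 1.05 ± 0.045 in Cg, at percentiles 99.0 to 99.3 of windows with 1 gene. The other windows with 1 gene were lower in that order: H3.3 lay at percentiles 61.2 to 71.4 in Atm window 2 and 76.2 to 80.9 in Brca1 window 2.

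Brca1, which recruits ATR to unsynapsed axes (chr11:101488761-101551955), had γH2AX of -0.14 ± 0.0035, -0.09 ± 0.077 and -0.18 ± 0.0016 in the carriers (SD, n = 3) and -0.11 in B6. Those SDs are of the summed windows. Single Brca1 windows varied more, with SDs of 0.046 to 0.084 in 1Rb_M and 0.024 to 0.051 in 3Rb. Brca1 sat in a low neighbourhood, whose medians were -0.16, -0.21, -0.42 and -0.29. Of its 20 flanking windows, 12, 20, 20 and 17 lay below Brca1 in 1Rb_M, 1Rb_P, 3Rb and B6. Rnf8, a ubiquitin ligase for histones (chr17:29614789-29641664), had γH2AX of 0.02 ± 0.20, 0.07 ± 0.075 and -0.02 ± 0.047 in the carriers and 0.15 in B6. Its 1Rb_M libraries ran from -0.21 to 0.16, the widest spread among the 10 genes. Setdb1, the methyltransferase of histone H3 lysine in silenced chromatin (chr3:95323525-95357202), had γH2AX of -0.04 ± 0.033, -0.06 ± 0.052 and -0.15 ± 0.020 in the carriers and -0.16 in B6. Its 2 windows differed in H3.3: window 1, which also holds Anxa9, Cers2 and LOC115489748, stood at 0.82 to 0.91 in the group means and window 2, with the start of the gene, at 0.26 to 0.33.

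**Figure D2:**
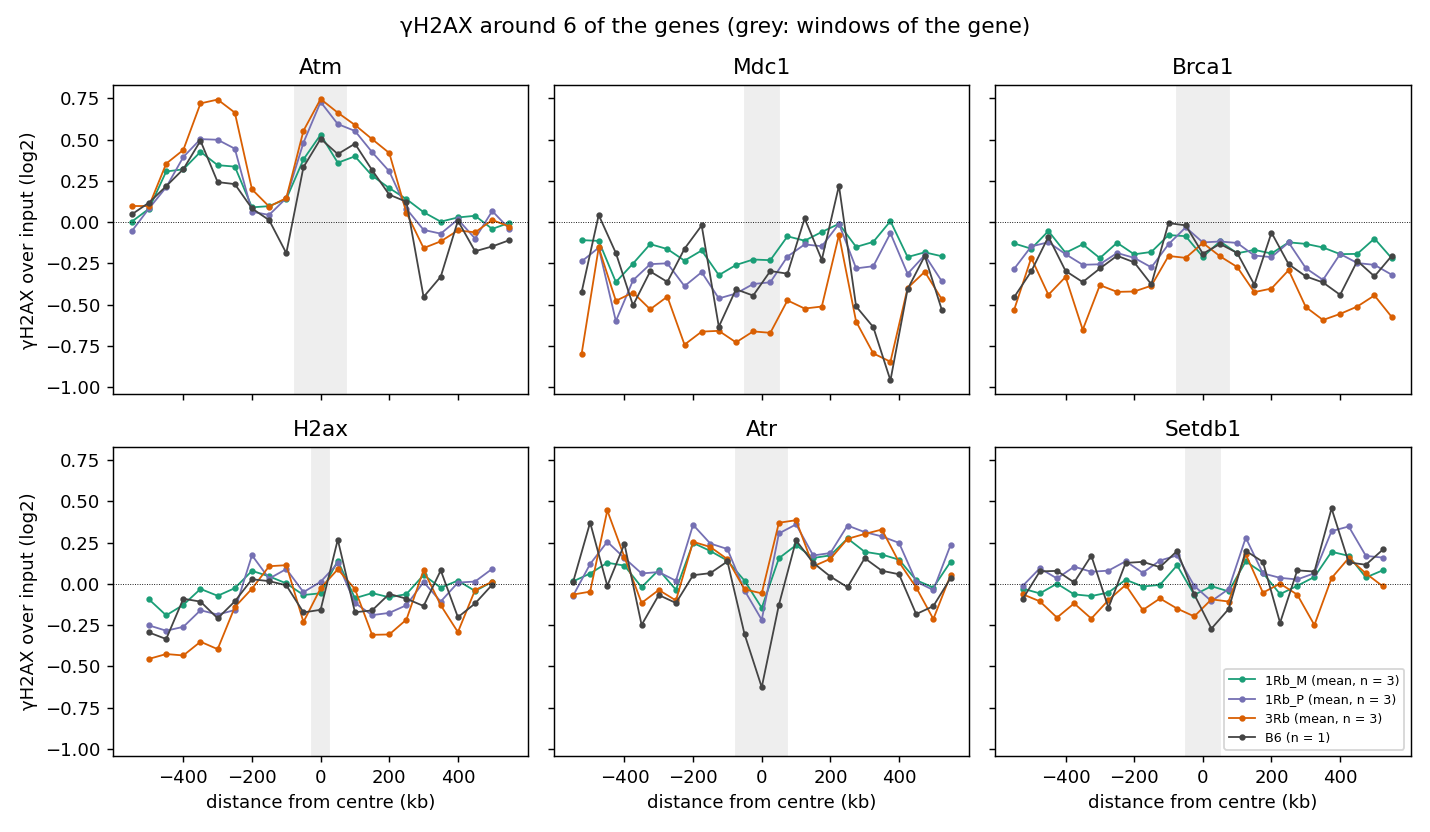
γH2AX as log2 counts over pooled input (vertical axis) by distance in kb from the centre of 6 genes, in 50 kb windows up to 500 kb beyond them, with coordinates rising to the right. Lines are group means (n = 3, and 1 library for B6) and grey marks the gene's windows. Atm sits on a local rise and Mdc1 in a broad low region that is lowest in 3Rb, while B6 dips at Atr. The mean over the Brca1 windows, though not each window, lies above all flanking windows in 1Rb_P and 3Rb.

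Setting 3Rb against 1Rb_M compares carriers of 3 translocations with carriers of 1. It found 2 of the 22 windows higher and 3 lower for γH2AX by edgeR's quasi-likelihood test with Benjamini-Hochberg adjustment over all 53118 windows tested, at adjusted p under 0.05. Of all windows, 17.9% were called higher and 20.2% lower, so 9.09% and 13.6% of the members' windows do not exceed the background. Scaling changed this balance: with library totals in place of TMM factors the calls over the genome went from 9507 higher and 10710 lower to 4492 and 16177 and those of the 22 windows to 1 and 8, and with TMM factors from 13 autosomes the genome had 12208 and 9124. Both Mdc1 windows fell. In CPM (counts scaled by library size and TMM factor), window 1 averaged 10.1 ± 0.49 in 3Rb and 13.8 ± 0.72 in 1Rb_M (SD, n = 3), a log2 difference of -0.45 ± 0.077 (SE, edgeR adjusted p = 2.9e-05). Window 2 averaged 10.2 ± 0.69 and 14.0 ± 1.3, a difference of -0.45 ± 0.075 (edgeR adjusted p = 1.7e-05). Of the like windows of Mdc1 windows 1 and 2, 50.8% and 63.5% were called lower, with medians of -0.16 and -0.23. The Mdc1 windows lay at percentiles 5.4 and 5.3 among them. Mdc1 did not fall alone: 16 of the 20 windows within 500 kb were called lower, with a flank median of -0.41. That region holds 47 protein-coding genes, 14 of them H2- genes of the major histocompatibility complex, where inbred strains differ in sequence and copy number. H3.3, measured in the same crosses, differed by -0.10 ± 0.057 and -0.07 ± 0.060 in the 2 windows between 3Rb and 1Rb (edgeR adjusted p = 0.42 and 0.61), and 2 of its 20 flanking windows were called higher and 5 lower. Since 3Rb has no input, copy number and mapping in that cross cannot be told apart from the mark.

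Atm window 3, which holds the start of Atm and the neighbouring Npat, rose from 17.6 ± 1.8 in 1Rb_M to 21.4 ± 0.79 CPM in 3Rb, a log2 difference of 0.28 ± 0.073 (SE, edgeR adjusted p = 0.0026). The other Atm windows differed by 0.15 ± 0.074 and 0.20 ± 0.081 (edgeR adjusted p = 0.098 and 0.055). Against 1Rb_P, Atm window 3 in 3Rb differed by only 0.06 ± 0.072 (SE, edgeR adjusted p = 0.60). At all 3 Atm windows 1Rb_M replicate 3, whose X share is like that of 1Rb_P and 3Rb, lay above replicates 1 and 2. In windows 1 and 2 it lay within the range of 3Rb. Without it, 1Rb_M kept only the 2 libraries with the low X share. The differences of windows 1 and 2 then passed, at 0.24 and 0.29 (edgeR adjusted p = 0.000605 and 4.4e-05). The part of the X share in this was not tested. Atr window 3, which also holds Xrn1, rose by 0.20 ± 0.062 (edgeR adjusted p = 0.013). That call was lost under 4 of 17 alternatives, including DESeq2 (adjusted p = 0.077) and the fit without 1Rb_M replicate 1 (edgeR adjusted p = 0.12). Setdb1 window 1 fell by 0.15 ± 0.056 (edgeR adjusted p = 0.039), a call lost under 7 of 17, including DESeq2 (adjusted p = 0.17). Of its like windows 50.8% were called lower, with a median of -0.16, and it lay at percentile 53.9 among them. The windows of H2ax, Chek2, Topbp1, Trp53bp1, Brca1 and Rnf8 did not pass.

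Against 1Rb_P, 3Rb had 0 of the 22 windows higher and 4 lower, where 10.1% of all windows were called higher and 12.8% lower. Mdc1 fell again, by 0.29 ± 0.078 in window 1 (12.4 ± 1.5 CPM in 1Rb_P, edgeR adjusted p = 0.0059) and by 0.31 ± 0.076 in window 2 (12.7 ± 0.84, edgeR adjusted p = 0.0031), with 12 of 20 flanking windows lower. Without 1Rb_P replicate 1 the window 1 difference was -0.20 (edgeR adjusted p = 0.11). Of the like windows of Mdc1 windows 1 and 2, 42.9% and 54.8% were called lower. The Mdc1 windows lay at percentiles 15.5 and 25.9 among them. Setdb1 window 1 fell from 15.8 ± 0.74 to 13.9 ± 0.48, by 0.19 ± 0.056 (edgeR adjusted p = 0.014), and Brca1 window 1, away from the start of the gene and shared with Ifi35, Rnd2 and Vat1, from 15.6 ± 1.2 to 13.6 ± 0.35, by 0.19 ± 0.060 (edgeR adjusted p = 0.019). Of their like windows 42.9% were called lower, and the 2 windows lay at percentiles 39.5 (Setdb1) and 38.9 (Brca1) among them. Both calls were lost under 4 of 17 alternatives, with DESeq2 giving adjusted p = 0.13 and 0.16. Around Brca1, 14 of 20 windows were lower and around Setdb1 12 of 20, so in both places the surroundings moved in the same direction. These 2 comparisons share the 3Rb libraries and are not independent.

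Around Rnf8, 14 of 20 flanking windows were called lower in 3Rb than in 1Rb_M and 12 than in 1Rb_P. The Rnf8 window itself was not called and differed by -0.06 ± 0.070 and -0.10 ± 0.070 (edgeR adjusted p = 0.49 and 0.35). Its like windows had medians of -0.06 and -0.04, and it lay at percentiles 48.8 and 36.1 among them. Against 1Rb_M it was called lower with library totals (edgeR adjusted p = 0.047) and without 1Rb_M replicate 2 (edgeR adjusted p = 0.025). Trp53bp1, on chromosome 2, had 0 of 3 windows called in either comparison, and its differences ran from -0.10 to 0.08.

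**Figure D3:**
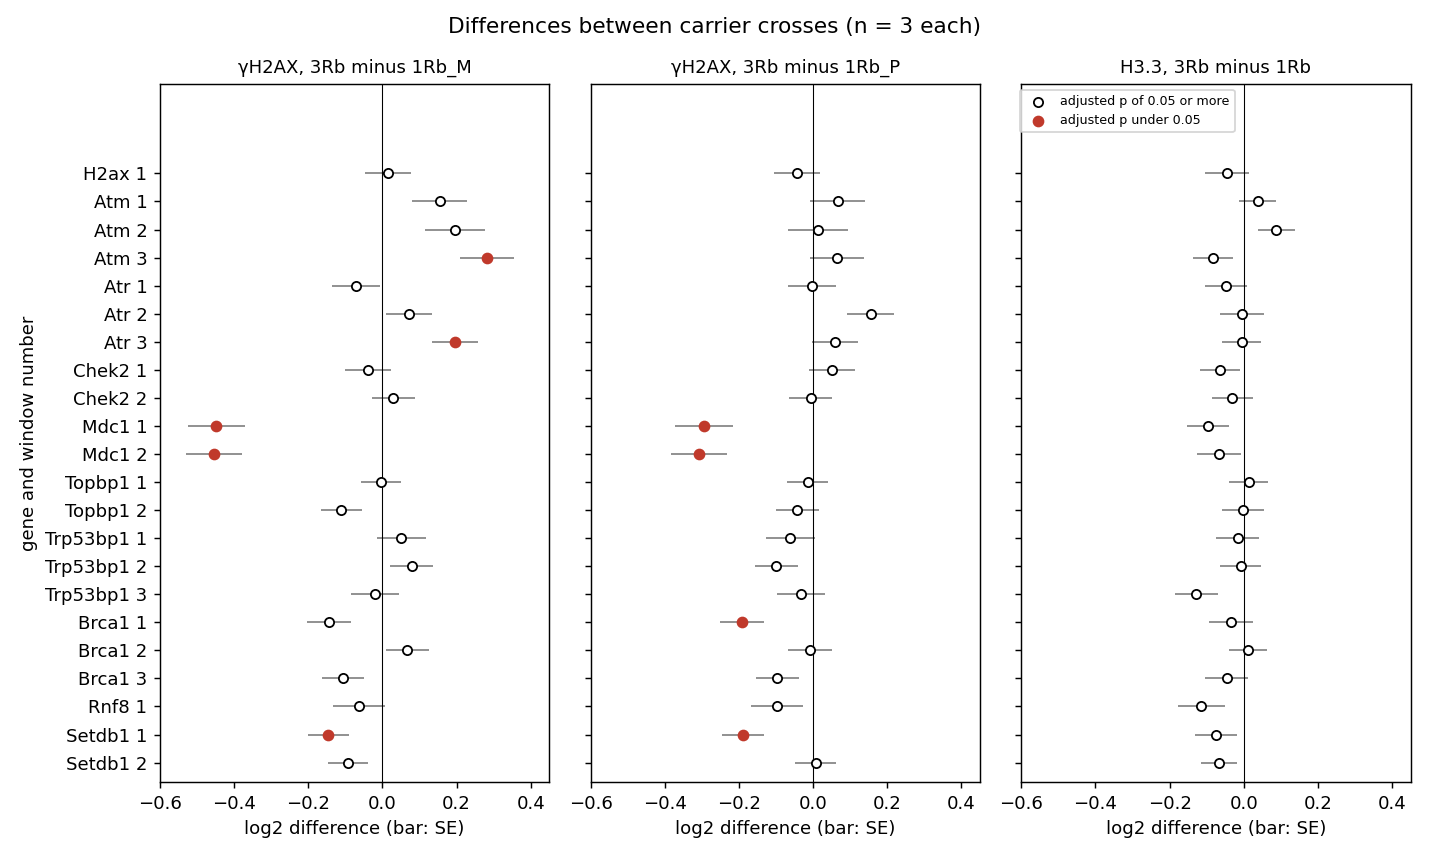
Log2 differences (horizontal axis, bars SE) in the 22 windows for γH2AX in 3Rb against 1Rb_M, γH2AX in 3Rb against 1Rb_P and H3.3 in 3Rb against 1Rb, n = 3 libraries a group. Filled points passed an edgeR adjusted p of 0.05. The Mdc1 windows lie farthest to the left for γH2AX, at -0.45 and -0.45, then -0.29 and -0.31, and no H3.3 point is filled.

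Between the crosses with 1 translocation, 1Rb_M and 1Rb_P, edgeR called 0 of the 22 windows, where 1.36% of all windows were called, and 5 had an unadjusted p under 0.05. DESeq2 called 0, but gave an adjusted p only at the 3 Atm windows and at Trp53bp1 windows 1 and 3. The other windows could not be called by it. By edgeR the farthest of the 22 was Atm window 3, lower in 1Rb_M by 0.22 ± 0.073 (17.6 ± 1.8 against 20.4 ± 0.43 CPM, edgeR adjusted p = 0.12). This comparison depended on single libraries. Without 1Rb_M replicate 2, Atr window 3 was called lower, at -0.19 (edgeR adjusted p = 0.041), and Mdc1 window 2 higher, at 0.21 (edgeR adjusted p = 0.043), with 1992 windows higher and 3675 lower over the genome. Without 1Rb_M replicate 3, 1 window was called higher, Mdc1 window 1 at 0.19 (edgeR adjusted p = 0.029), and 4 lower, namely all 3 Atm windows at -0.17, -0.28 and -0.30 and Trp53bp1 window 2 at -0.20 (edgeR adjusted p = 0.0071). Without replicate 3 the calls over the genome went from 159 higher and 565 lower to 5317 and 8116, and with library totals, all libraries kept, they were 391 and 174 (DESeq2 gave 20 and 468).

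H3.3 showed no call at any of the 22 windows. By edgeR 0 passed in 1Rb against Cg, 0 in 3Rb against Cg and 0 in 3Rb against 1Rb, with 0, 0 and 1 windows under an unadjusted p of 0.05, and DESeq2 called 0 in each. Of all windows 3.71, 9.51 and 6.1% were called in these 3 comparisons, and in 3Rb against Cg 1775 were higher and 3274 lower, or 2504 and 2958 with library totals. Among the members the differences ran from -0.06 to 0.07, from -0.10 to 0.04 and from -0.13 to 0.09. The lowest of them was Trp53bp1 window 3 in 3Rb against 1Rb, at 29.9 ± 1.1 and 32.6 ± 1.0 CPM (log2 difference -0.13 ± 0.058, edgeR adjusted p = 0.26). At H2ax the means were 42.4 ± 2.3 in 1Rb, 41.1 ± 1.9 in 3Rb and 42.5 ± 1.8 CPM in Cg, which did not differ beyond their spread.

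Set beside the 9 carrier libraries, the B6 library had γH2AX below all of them in 6 windows and above all in 1, where over autosomal windows 19.2% were below and 15.1% above. The windows below were the 3 of Atr, the 2 of Topbp1 and Setdb1 window 2. In Setdb1 window 2, B6 stood at -0.27 and the carriers from -0.18 to 0.00. The window above was Trp53bp1 window 2, at 0.29 against -0.04 to 0.27. At Mdc1, B6 lay within the carrier range in both windows, so γH2AX was low there in B6 as well. B6 counts here were 181 to 382 a window, and with 1 library, another antibody supplier and another strain these differences have no replicate check.

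A wider list of 61 genes of the same pathway covered 135 windows. It held the MRN and clamp sensors, further kinases, axis readers, ubiquitin and BRCA1-complex genes, heterochromatin genes and the Fanconi group. A last set, grouped as γH2AX removal, took in Eya1 to Eya4 and Wdr76 beside the phosphatase genes Ppp4c, Ppp2ca and Ppm1d. In 3Rb against 1Rb_M 32 of its windows (19 genes) were higher and 26 (17 genes) lower for γH2AX, beside the 17.9% and 20.2% of all windows, with a median difference of 0.04 against 0.01 over all windows. Against 1Rb_P 18 (11 genes) were higher and 17 (13 genes) lower, beside 10.1% and 12.8% of all windows, with medians of 0.01 and 0.00. Every role but the axis readers (2 of 6 windows higher and 0 lower in each comparison) had calls in both directions. Against 1Rb_M, 6 of the 19 sensor windows rose and 5 fell, of the 13 of kinases and effectors 2 and 1, and of the 35 of ubiquitin and BRCA1-complex genes 8 and 5. Of the 24 heterochromatin windows 6 rose and 4 fell, of the 15 Fanconi windows 3 and 4, and of the 23 windows of the γH2AX removal set 5 and 7. Against 1Rb_P the same roles in that order had 4 higher and 3 lower, 1 and 2, 2 and 4, 4 and 2, 1 and 3, and 4 and 3.

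Mre11a, the nuclease of the break sensor MRN, rose by 0.59 ± 0.058 against 1Rb_M (21.5 ± 0.75 and 14.3 ± 0.50 CPM, edgeR adjusted p = 2.6e-09) and by 0.61 ± 0.059 against 1Rb_P. Its window, chr9:14750001-14800000, lies nearer the centromere of chromosome 9 than any of the 4 members there. Any part of that position was not tested. Chek1, the effector kinase of ATR at chr9:36700001-36750000, rose by 0.31 ± 0.055 and 0.31 ± 0.056. Eya1, on chromosome 1, rose by 0.46 ± 0.057 and, in another of its windows, 0.58 ± 0.067. Atf7ip, the partner of SETDB1, rose by 0.27 ± 0.055 against 1Rb_M, and Hormad2, an axis protein needed for ATR recruitment, by 0.27 ± 0.057 against 1Rb_P. Lower in both comparisons were Ehmt2, a histone methyltransferase on chromosome 17 like Mdc1 (-0.52 ± 0.068 and -0.36 ± 0.070), Eya2 (-0.36 ± 0.065 and, in the next window, -0.28 ± 0.067) and Fanca (-0.38 ± 0.069 and -0.30 ± 0.070). Fanci fell by 0.26 ± 0.058 against 1Rb_M and Trp53 by 0.33 ± 0.070 against 1Rb_P. For each of these named windows the edgeR adjusted p was 0.0022 or less. The Ehmt2 window lies at chr17:34900001-34950000. Since 3Rb has no input, copy number and mapping cannot be told apart from the mark at these windows, as at Mdc1. Between 1Rb_M and 1Rb_P, edgeR called 0 of the 135 windows, with 9 at an unadjusted p under 0.05. DESeq2 also called 0, with any window it left without an adjusted p counted as not called. For H3.3, 1 window of Eya1 was higher in 3Rb than in Cg (0.17 ± 0.050, edgeR adjusted p = 0.018) and 1 of Palb2 lower in 3Rb than in 1Rb (-0.20 ± 0.053, edgeR adjusted p = 0.013).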

How the data were processed

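The authors deposited raw read counts per 50 kb window, 1 table per library, with 54520 windows along mm10. The submitters' processing notes name CASAVA 1.8, BWA and mm10; their settings, and how duplicate or multiply mapping reads were handled, are not given in the sources used here. Groups follow the titles, also for the 1Rb_M input, whose strain label is that of 1Rb_P. The labels give the γH2AX antibody as Millipore clone JBW301 for the carriers, Upstate for B6, and a Millipore H3.3 antibody.

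Gene positions and promoters came from RefSeq (GRCm38.p6); all 10 members and 61 further genes were matched. Members and lists were chosen with earlier results of these data known. All member windows are named; of the further genes, at most 4 called per direction and comparison, by smallest adjusted p, 1 window a gene; as most like H2ax, the 3 nearest windows with genes, more than 1 Mb away. Levels are log2((count + 0.5)/(pooled input + 0.5)) less the median over 13 autosomes. Like windows are autosomal, with the same gene number (5 or more together) and input of 0.2 to 5 times the median. Each mark's 9 replicated libraries were fitted together in edgeR 4.0.16 (R 4.3.3) with TMM scaling, a mean count of at least 10 and Benjamini-Hochberg adjustment; the fit was tested on simulated data. DESeq2 1.42.0, scaling, filters, block and left-out replicates were tried. No sample was dropped or imputed. Figures used matplotlib 3.10.9.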

Additional observations from a re-analysis of the deposited data

How the results depend on the processing

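The counting error of 1.31 to 7.43% and 3 libraries a group limit what can be called, 3Rb has no input of its own, and 50 kb does not separate neighbouring genes. No value changed direction among called results. The fall at both Mdc1 windows and the rise at Atm window 3 against 1Rb_M kept their calls under all 17 alternatives. They ran from -0.56 to -0.38 for Mdc1 and from 0.19 to 0.36 for Atm. Against 1Rb_P, Atm window 3 was not called in the main fit, at 0.06 ± 0.072 (SE). Leaving out windows of unusual input called Brca1 window 1 too, and no filter on low counts changed 0 of 132 results. Among 132 results, the sign changed in 21 with library totals, and 0 reversed between calls.

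Of the 22 windows, 3Rb against 1Rb_M had 2 higher, which became 1 with DESeq2, 1 with library totals and 1 to 4 without a replicate each. The 3 lower became 8 with library totals and 2 to 5 without a replicate each. Library totals moved the median of all windows from 0.01 to -0.09 and the calls from 9507 higher and 10710 lower to 4492 and 16177. Against 1Rb_P, the 4 lower became 2 with DESeq2 and 2 to 4 without a replicate each, and the 0 higher became 1 (Atr window 2) with TMM on 13 autosomes, 1 in a fit of the 2 groups alone and 0 to 1 without a replicate each. For 1Rb_M against 1Rb_P, leaving out a replicate gave 0 to 1 higher and 0 to 4 lower. Over the genome, the 5369 higher and 6809 lower against 1Rb_P became 3166 and 3870 with DESeq2 and 9651 and 10251 in the fit of the 2 groups. For H3.3 every alternative run called 0 of the 22 windows.

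Replicate numbers did not pair the libraries: same-numbered γH2AX libraries correlated between -0.33 and 0.32. With a replicate block, 3Rb against 1Rb_M had 2 windows higher and 2 lower, Setdb1 window 1 being lost (-0.14, edgeR adjusted p = 0.052), and the counts against 1Rb_P were again 0 and 4. Summing 1Rb_M replicates 1 and 2, chosen after seeing the data, also lost Setdb1 window 1 (edgeR adjusted p = 0.057).

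The median level less like windows moved as follows. In 1Rb_M γH2AX (-0.01) it was -0.0333 with the 1Rb_M input, -0.0368 with Cg, 0.0503 with B6, 0.00416 with like windows of the same chromosome and -0.0306 to -0.0185 without a replicate each. In 1Rb_P (-0.00) it was 0.10 with the B6 input and -0.0387 by genic share (the share of a window covered by genes). In 3Rb (0.00) it was 0.10 with the B6 input and 0.0742 on the same chromosome, and in B6 (-0.09) it was -0.0392 and -0.0489. For H3.3, with the B6 input it was 0.27 in 1Rb, 0.32 in 3Rb and 0.33 in Cg, by genic share 0.61, 0.58 and 0.61, on the same chromosome 0.22 in 3Rb and 0.20 in Cg, and with the Cg input 0.22 in 3Rb.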
